A study of Mus musculus with 10 samples.

Results

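The 10 genes described here are read-outs of canonical Wnt signalling and genes of the primitive streak: the ligand gene Wnt8a, the receptor gene Fzd7, the nuclear effector gene Lef1, the feedback target Axin2, the zinc finger target Sp5, the T-box gene T, the mesoderm gene Mesp1 and the homeobox genes Evx1, Cdx1 and Cdx2. They were chosen by name: every noncontrol probe whose gene name on the array was 1 of these 10 was taken, which gave 13 probes, and all 10 genes were among the 28193 genes tested in the whole series. The study measured expression with single-colour Agilent SurePrint arrays in mouse embryonic stem (ES) cells. The diploid control, WT, was the male AB1 line at passages 18 and 20. The trisomic lines, whose strain is labelled 129 S7/SvEvBrd, carried 3 copies of chromosome 6 (Ts6, passages 9 and 18), chromosome 8 (Ts8, passages 10 and 13), chromosome 11 (Ts11, passages 8 and 11) or chromosome 15 (Ts15, passages 11 and 14). Each group had 2 arrays, described by the submitters as biological replicates, so 10 arrays were compared. A group is 1 cell line, so a trisomy cannot be told apart from other differences of the line that carries it, and p-values measure the spread between cultures of these lines. All groups were grown in serum on γ-irradiated SNL76/7 fibroblast feeder cells, which were depleted by letting them settle before total RNA was extracted.

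In canonical Wnt signalling a Wnt ligand binds a Frizzled receptor with an Lrp co-receptor, which stops the destruction complex from degrading β-catenin. β-catenin then enters the nucleus and activates genes through T-cell factor (TCF/LEF) proteins. In the embryo this pathway is needed to form the primitive streak, where T, Mesp1, Evx1 and the Cdx genes mark the cells that become mesoderm and the posterior body. In ES cells the same pathway supports self-renewal, and it also induces streak genes when cells leave the pluripotent state.

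On each array 71.4% to 80.2% of noncontrol spots were well above background and none was saturated. The number of arrays limits the precision. Levels are given as percent of the 75th-percentile signal of the same array, and are compared between groups for 1 probe at a time, never between genes. Ts15 was hybridised on a slide of its own, and WT, Ts6, Ts8 and Ts11 each filled a separate column of the other slide, so slide position and line cannot be told apart. The pluripotency markers Pou5f1, Sox2, Nanog and Zfp42 were well above background on all 10 arrays, and none of the 4 was called against WT in any line (limma adjusted p from 0.15 to 1). Of all 18 genes on the pluripotency list, 1 fell in Ts8 and 1 in Ts11, beside 1.43% and 4.10% of all genes. They were Tfcp2l1 (log2 difference -0.64, limma adjusted p = 0.035) and Lin28a (-0.55, adjusted p = 0.029), named after their values were seen. No other gene of the list was called. The list summed to 23712 to 24644 in WT, 21100 to 22227 in Ts8 and 22293 to 22856 in Ts11. Its sums were 23811 to 24269 in Ts6 and 22839 to 26069.5 in Ts15. The fibroblast markers Col1a1, Col1a2, Col3a1 and Thy1 were also well above background on all 10 arrays, and Postn, another of them, on 6 arrays; whether that RNA came from feeder cells was not tested. Of the trophectoderm markers, Gata3, Hand1 and Tfap2a were well above background on all 10 arrays and Elf5 on none.

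**Figure D1:**
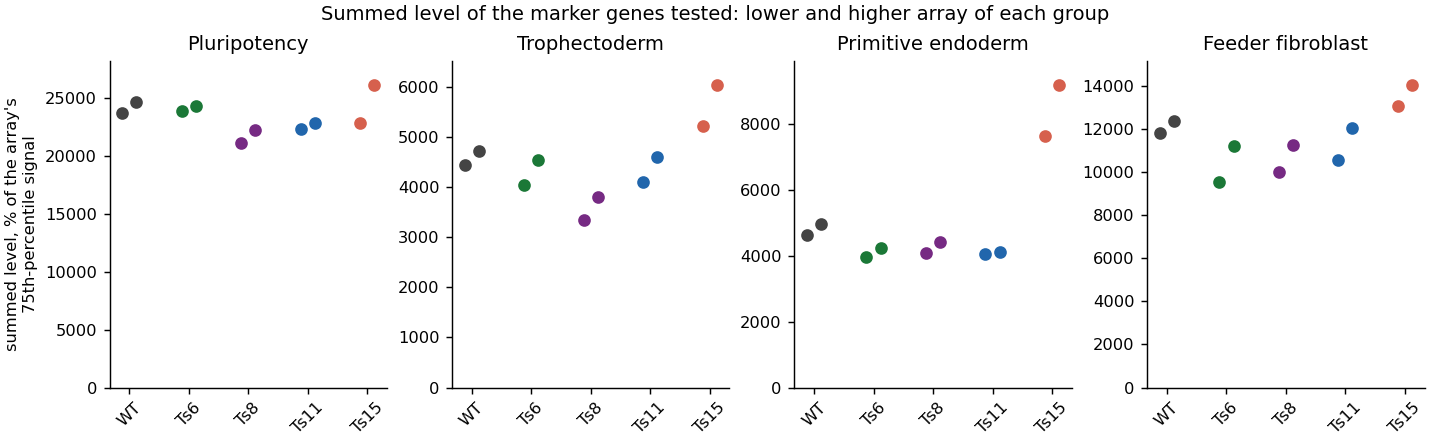
Summed level of the tested genes of each marker list, in percent of the array's 75th-percentile signal, with 1 point for the lower and 1 for the higher array of each group. The primitive endoderm list stands at 7643 to 9185 in Ts15 and at 3956 to 4955 in the other groups; the fibroblast list spans 9562 to 14041 over all groups.

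The marker lists differed most in Ts15. Of 20 primitive endoderm genes 13 rose in Ts15 against WT, where 2.58% of all genes rose. The median log2 difference of the 20 was 0.91 beside -0.01 over all genes. Their summed level was 7643 to 9185 in Ts15 against 4646 to 4955 in WT. All 4 defining genes of that lineage rose: Sox17 by 2.48, Sox7 by 1.52, Gata6 by 1.51 and Gata4 by 1.37 on the log2 scale (limma adjusted p from 0.0034 to 0.0088). The fibroblast list, of which 25 of 26 genes were tested, summed to 13094 to 14041 in Ts15, to 11804 to 12376 in WT, to 9562 to 11208 in Ts6, to 10021 to 11269 in Ts8 and to 10565 to 12048 in Ts11. By median, both lists also leaned lower in lines where members fell. Of all genes, 4.60% were called lower in Ts6, 1.43% in Ts8 and 4.10% in Ts11. In Ts6 the fibroblast median was -0.34, with 1 gene called lower and 8 lower and 0 higher at an unadjusted p under 0.05 in limma, and the primitive endoderm median was -0.28, with 3 called lower and 7 lower unadjusted. In Ts11 the primitive endoderm median was -0.45, with 1 called lower, and 10 of the 20 lower and 1 higher unadjusted. The Ts11 fibroblast median was -0.17, with none called and 2 lower unadjusted, and the fibroblast sums of Ts11 and WT overlapped. In Ts15 the fibroblast median was 0.13, with 1 of the 25 genes called higher. The Ts8 medians were -0.22 for fibroblast and -0.17 for primitive endoderm genes, and no gene of either list was called there (3 lower in each at an unadjusted p under 0.05, and 1 fibroblast gene higher). The trophectoderm list, which holds Cdx2, summed to 5225 to 6040 in Ts15, 3347 to 3813 in Ts8 and 4042 to 4734 over WT, Ts6 and Ts11. In such bulk RNA, more cells of a type and more RNA per cell cannot be told apart. What part these differences have in the values of the lines below, the falls in Ts6, Ts8 and Ts11 included, was not tested.

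The probes lie at these mm9 positions, taken from the array files, which do not say which part of the transcript each one covers. The Wnt8a probe is at chr18:34707599-34707658 and the Cdx1 probe at chr18:61178558-61178617. Sp5 was measured at chr2:70315688-70315747, T at chr17:8635302-8635361, Mesp1 at chr7:86937140-86937199 and Cdx2 at chr5:148112547-148112606. Evx1 (chr6:52268298-52268357) lies on the chromosome that is trisomic in Ts6, and Axin2 (chr11:108812034-108812093, with another probe at chr11:108803927-108803986) on the one trisomic in Ts11. The ends of the Lef1 probe lie at chr3:130907851 and 130926012, so that its bases are split over exons, and another probe lies at chr3:130926200-130926259. The Fzd7 probes are at chr1:59543192-59543251 and chr1:59541367-59541426. Where a gene had 2 probes, the brighter one over all arrays stands for the gene and the other is given beside it.

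Against WT, members fell in Ts6, Ts8 and Ts11, and in Ts15 only Cdx1 passed the test. In Ts6, 4 of the 10 genes fell (Wnt8a, Sp5, Axin2 and Mesp1) and Cdx1 rose, where 4.60% of all genes fell and 4.44% rose (limma adjusted p under 0.05). In Ts8, 5 fell (Wnt8a, T, Cdx2, Sp5 and Evx1) and none rose, where 1.43% of all genes fell and 2.06% rose. In Ts11, 3 fell (Wnt8a, Cdx1 and Fzd7) and none rose, beside 4.10% and 4.03% of all genes. In Ts15, Cdx1 rose and none fell, beside 2.58% of all genes that rose and 4.86% that fell. The median log2 difference of the 10 was -0.82 for Ts6, -0.92 for both Ts8 and Ts11, and 0.52 for Ts15, and that of all genes lay between -0.01 and 0.04. At an unadjusted p under 0.05 in limma, Ts6 had 8 members lower and 1 higher, and Ts8 had 5 lower and 1 higher. At the same threshold Ts11 had 7 lower and 1 higher, and Ts15 had 1 lower and 5 higher. No share of all genes is given at that unadjusted threshold, here or for the gene lists. The unadjusted counts are therefore descriptions and cannot be set against the shares above.

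These counts rest on few arrays. In each omission named here the calls over all genes in the same comparison also became fewer. A lower count after an omission is therefore not particular to the members. Without Ts8 replicate 2 no Ts8 call was left, and without WT replicate 1 or WT replicate 2 there was 1. The Ts6 count was 3 without WT replicate 2, Ts6 replicate 1 or Ts6 replicate 2, the Ts11 count was 1 without WT replicate 1, Ts11 replicate 1 or Ts11 replicate 2, and the Ts15 count was 0 without WT replicate 2 or Ts15 replicate 1 and 2 without WT replicate 1. With passage as a covariate the counts of members called became 3 in Ts6 and 0 in Ts8, Ts11 and Ts15, while the calls over all genes fell too, from 2549 to 829, 984 to 6, 2292 to 48 and 2096 to 449. The WT passages were 18 and 20, and of the trisomic arrays only Ts6 replicate 2 was as high as 18.

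**Figure D2:**
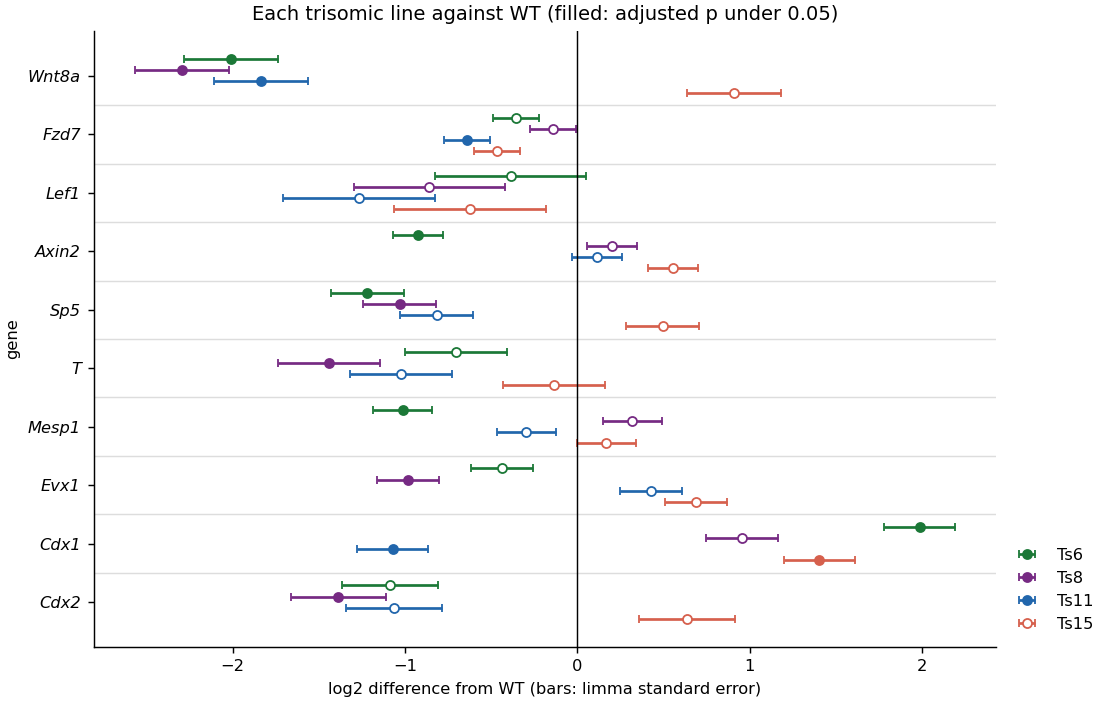
Log2 difference of each gene from WT in each trisomic line, with the limma standard error as bars and filled points where the adjusted p is under 0.05. Wnt8a stands between -2.30 and -1.84 in Ts6, Ts8 and Ts11 and at 0.91 in Ts15, and Cdx1 runs from -1.07 in Ts11 to 1.98 in Ts6.

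To show the regulatory sequence of the members, promoters were taken from RefSeq (GRCm38.p6) as windows of 250 bases before to 50 bases after the start site; 8 of the 10 members had a window, Lef1 had several, and there were 11 in all. The core that TCF/LEF proteins bind was searched on both strands as CTTTGAA, with the variants CTTTGAT, then CTTTGTA, then CTTTGTT, and the GC box, which Sp-family factors bind, as GGGCGG. A core was present in the windows of 5 members (Sp5, Mesp1, T, Fzd7 and Lef1), in 5 of 11 windows, and in 16.9% of 32851 promoter windows of the same length. A GC box was present in 4 members (Axin2, Fzd7, Lef1 and T), in 6 of 11 windows, and in 35.7% of all windows. The 250 bases before the start site are printed 5′ to 3′ along the gene for the genes of the results below that have 1 start site and a core, and for Axin2, the Wnt target in common use as a reporter, whose window holds no core but 2 GC boxes. Capitals mark the TCF/LEF core on either strand.
Sp5 promoter (GRCm38.p6, chr2:70474673-70474922, + strand): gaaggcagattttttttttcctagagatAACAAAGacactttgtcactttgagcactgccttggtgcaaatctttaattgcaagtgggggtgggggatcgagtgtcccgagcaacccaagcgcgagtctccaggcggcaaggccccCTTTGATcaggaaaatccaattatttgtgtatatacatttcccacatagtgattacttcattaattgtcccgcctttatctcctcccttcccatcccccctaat
Mesp1 promoter (GRCm38.p6, chr7:79793591-79793840, - strand): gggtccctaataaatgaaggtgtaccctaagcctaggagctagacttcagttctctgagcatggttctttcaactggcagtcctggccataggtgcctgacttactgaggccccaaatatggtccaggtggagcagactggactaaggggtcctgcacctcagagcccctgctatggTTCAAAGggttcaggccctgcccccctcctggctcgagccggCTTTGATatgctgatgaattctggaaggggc
T promoter (GRCm38.p6, chr17:8434173-8434422, + strand): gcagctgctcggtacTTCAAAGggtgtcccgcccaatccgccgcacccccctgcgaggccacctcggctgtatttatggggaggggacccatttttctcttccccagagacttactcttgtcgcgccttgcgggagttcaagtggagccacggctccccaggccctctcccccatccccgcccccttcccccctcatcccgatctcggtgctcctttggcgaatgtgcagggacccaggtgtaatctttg
Fzd7 promoter (GRCm38.p6, chr1:59481897-59482146, + strand): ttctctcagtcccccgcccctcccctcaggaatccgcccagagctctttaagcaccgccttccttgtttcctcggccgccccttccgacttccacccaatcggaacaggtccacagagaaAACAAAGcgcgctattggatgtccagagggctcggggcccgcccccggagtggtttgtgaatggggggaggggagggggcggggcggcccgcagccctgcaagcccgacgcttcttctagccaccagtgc
Axin2 promoter (GRCm38.p6, chr11:108920099-108920348, + strand): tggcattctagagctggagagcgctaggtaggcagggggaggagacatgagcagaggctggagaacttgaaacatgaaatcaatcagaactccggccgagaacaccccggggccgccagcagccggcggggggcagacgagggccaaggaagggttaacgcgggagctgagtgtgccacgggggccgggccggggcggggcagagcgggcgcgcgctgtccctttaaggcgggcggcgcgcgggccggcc
The Sp5 window has 1 core in each orientation, starting 222 and 104 bases before the start site, and the Mesp1 window likewise at 73 and 31 bases. T has a single core at 235 bases and Fzd7 a single core at 130 bases. These matches describe the letters in the windows and do not show that a factor binds there.

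Wnt8a, the ligand of the set and itself active in the primitive streak, had the widest differences among the members that fell. It stood 39.0% and 35.1% for WT, 9.49% and 8.86% for Ts6, 10.1% and 5.63% for Ts8, 12.2% and 8.76% for Ts11 and 64.1% and 74.9% for Ts15. The arrays of Ts6, Ts8 and Ts11 overlapped one another and all lay below both WT arrays, while both Ts15 arrays lay above them. The fall was 4.03-fold in Ts6 (log2 difference -2.01, SE 0.27, limma adjusted p = 0.0049), 4.91-fold in Ts8 (adjusted p = 0.016) and 3.57-fold in Ts11 (adjusted p = 0.0098). The difference of 0.91 in Ts15 did not pass the test (adjusted p = 0.09). The Ts6 call held in all 16 alternative settings, the Ts8 call in 12 of 16 and the Ts11 call in 14 of 16. Over the mean of the 4 lines Wnt8a also fell (-1.31, adjusted p = 0.024), but this mean joins lines on either side of WT; 1.95% of all genes fell and 1.90% rose in that comparison.

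Fzd7, a Frizzled receptor that is prominent in ES cells, stood 127% and 105% for WT, 96.1% and 84.4% for Ts6, 109% and 100.3% for Ts8, 73.6% and 74.3% for Ts11, and 79.6% and 87.7% for Ts15. Both Ts11 arrays were the lowest, and the Ts8 and WT arrays overlapped. The gene fell in Ts11 by 0.64 on the log2 scale (SE 0.13, limma adjusted p = 0.029) and did not pass the test in Ts6 (-0.36), Ts8 (-0.14) or Ts15 (-0.47). Its other probe gave another picture. On that probe the level was 19.01% and 21.0% for WT, 9.46% and 9.67% for Ts6, 18.4% and 13.6% for Ts8, 18.98% and 15.4% for Ts11, and 21.5% and 20.6% for Ts15. In a fit over the 43056 probes it was lower in Ts6 (-1.06, SE 0.17, adjusted p = 0.011) and not in Ts11 (-0.23, adjusted p = 0.46), whereas the brighter probe was lower in Ts11 (adjusted p = 0.035) and not in Ts6 (-0.36, adjusted p = 0.16). The line in which Fzd7 differs from WT thus depends on the probe. The dimmer probe, shown because the call turns on it, has this sequence:
Fzd7 dimmer probe: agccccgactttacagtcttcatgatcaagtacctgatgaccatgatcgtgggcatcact

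Lef1, the TCF/LEF factor that is induced by the pathway it serves, was 148% and 129% for WT, 129% and 86.4% for Ts6, 96.2% and 60.0% for Ts8, 88.3% and 37.2% for Ts11, and 113% and 70.8% for Ts15. All 8 trisomic arrays were below both WT arrays, the highest Ts6 array by a small margin. No line passed the test: the differences were -0.39, -0.86, -1.27 and -0.62 in Ts6, Ts8, Ts11 and Ts15 with an SE of 0.44, and the 95% interval in Ts11 ran from -2.29 to -0.25 (limma adjusted p = 0.12). The other probe gave -0.56, -0.93, -1.41 and -0.86, none of them called. The array of the higher passage was the lower one in all 5 groups, by 0.20 to 1.25 on the log2 scale. That array was also in the second row of its slide in each group, and 8.93% of all genes were likewise lower on it in all 5 groups. With the replicate number as a block, Lef1 was called in Ts11 (adjusted p = 0.027).

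Axin2, a scaffold of the destruction complex and a general target of the pathway that limits it, fell in Ts6 alone among the lines. Its level was 7.81% and 8.34% for WT, 4.57% and 3.95% for Ts6, 8.42% and 10.2% for Ts8, 8.01% and 9.54% for Ts11, and 11.6% and 12.1% for Ts15. The 2 Ts6 arrays were the lowest of the 10 and the 2 Ts15 arrays the highest. Axin2 fell in Ts6 by 0.93 (SE 0.14, limma adjusted p = 0.0086), and differed by 0.20 in Ts8 (adjusted p = 0.42) and by 0.11 in Ts11 (adjusted p = 0.66; 95% interval -0.22 to 0.45), the line with an extra copy of its chromosome. In Ts15 the difference was 0.55 (adjusted p = 0.061). Ts6 was also lower than each other line: Ts8 exceeded it by 1.13, Ts11 by 1.04 and Ts15 by 1.48, all called. The dimmer probe read -0.79 for Ts6 (adjusted p = 0.058), 0.21 for Ts8, 0.31 for Ts11 and 0.10 for Ts15, and the Ts6 call was lost when either the second WT or the second Ts6 array was left out (adjusted p = 0.05 in both) and with passage as a covariate (adjusted p = 0.062).

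Sp5, a zinc finger repressor induced directly by β-catenin, was 46.5% and 29.0% for WT, 17.4% and 14.3% for Ts6, 18.4% and 17.6% for Ts8, 20.1% and 21.6% for Ts11, and 51.0% and 52.5% for Ts15. The 6 arrays of Ts6, Ts8 and Ts11 were all below WT and both Ts15 arrays above it, although the WT arrays themselves were 0.68 apart on the log2 scale. Sp5 fell in Ts6 (-1.22, SE 0.21, limma adjusted p = 0.013) and in Ts8 (-1.03, adjusted p = 0.046), and missed the threshold in Ts11 (-0.82, adjusted p = 0.058) and Ts15 (0.49, adjusted p = 0.2). The calls turn on single arrays. The Ts6 call was lost without either Ts6 array (adjusted p = 0.051 and 0.069), and the Ts8 call in 8 of 16 alternatives. The Ts11 difference was -0.47 without WT replicate 1 and -1.16 without WT replicate 2, where it was called (adjusted p = 0.023). That of Ts15 was 0.84 without WT replicate 1, where it was called (adjusted p = 0.037), and 0.15 without WT replicate 2. Ts15 was higher than Ts6 by 1.71, than Ts8 by 1.53 and than Ts11 by 1.31 (adjusted p from 0.0023 to 0.0076). Sp5 and Axin2, both read as general pathway targets, therefore took different values in Ts8 and Ts11: Sp5 at -1.03 and -0.82, Axin2 at 0.20 and 0.11. That contrast between the genes was not tested.

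**Figure D3:**
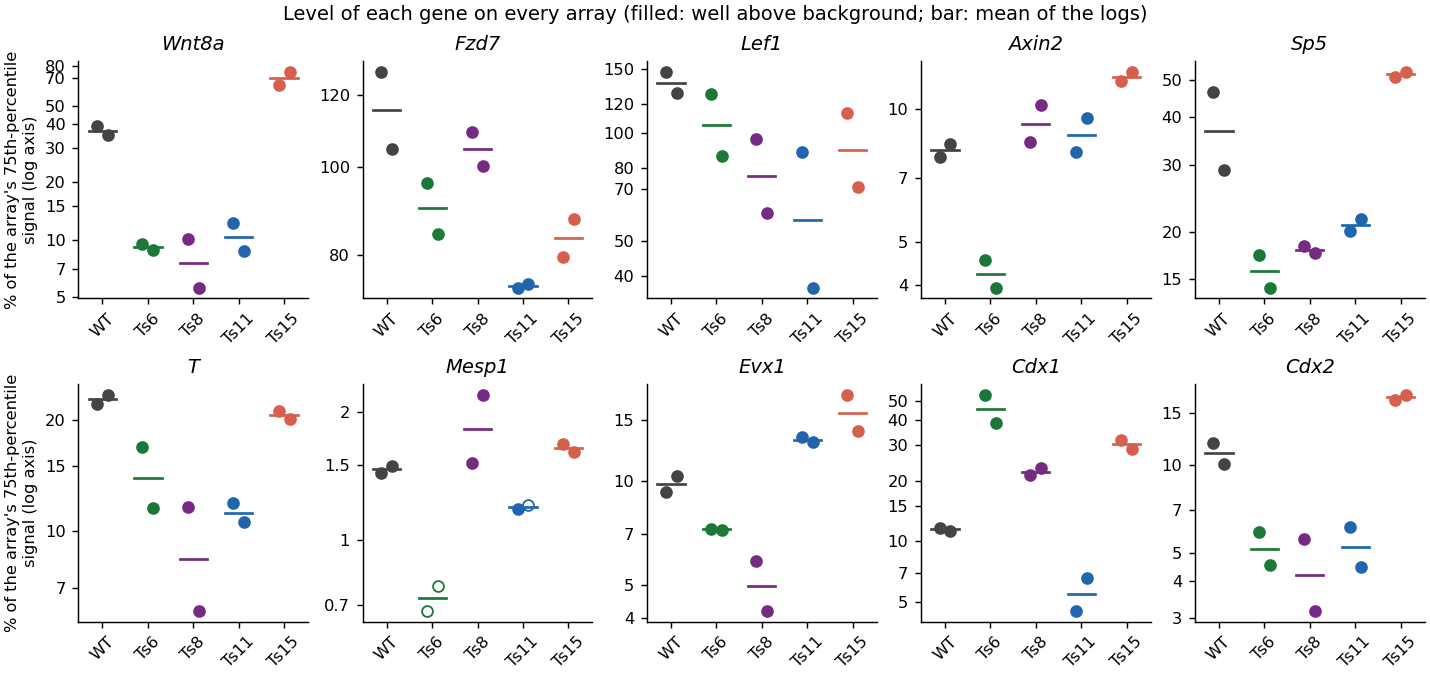
Level of each gene on each of the 10 arrays, in percent of the array's 75th-percentile signal on log axes that differ between panels, with a bar at the mean of the logs and open points where the probe was not well above background. Wnt8a, Sp5 and Cdx2 share a pattern of low Ts6, Ts8 and Ts11 and high Ts15 arrays, and Cdx1 is highest in Ts6 and lowest in Ts11.

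T, the T-box gene known as Brachyury that defines the streak, was 22.1% and 23.4% for WT, 16.9% and 11.5% for Ts6, 11.6% and 6.08% for Ts8, 11.9% and 10.6% for Ts11, and 21.2% and 20.2% for Ts15. All 8 trisomic arrays were below WT, those of Ts15 only just. T fell in Ts8 (-1.44, SE 0.29, limma adjusted p = 0.046), and the test was missed in Ts11 (-1.02, adjusted p = 0.079), Ts6 (-0.70, adjusted p = 0.19) and Ts15 (-0.14, adjusted p = 0.82; 95% interval -0.82 to 0.55). Ts15 was higher than Ts8 by 1.30 (adjusted p = 0.025). The Ts8 call ended in 7 of 16 alternatives, among them the removal of Ts8 replicate 2 (-0.97, adjusted p = 0.16), the lower array of that line.

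Mesp1, a basic helix-loop-helix factor of the earliest cardiac mesoderm, was well above background on 7 of 10 arrays. It read 1.44% and 1.496% for WT, 0.680% and 0.778% for Ts6, 1.52% and 2.20% for Ts8, 1.18% and 1.21% for Ts11, and 1.69% and 1.61% for Ts15. Neither Ts6 array and 1 of the 2 Ts11 arrays were well above background. Limma called Mesp1 lower in Ts6 than in WT (adjusted p = 0.012), but the WT mean lay under the lowest signal well above background on the Ts6 arrays, so no fold is given. The same holds for Ts11 and Ts15 against Ts6, while Ts8 was at least 1.1-fold higher than Ts6, where the bound takes the mean of the brighter group over that lowest signal. With normexp background correction the Ts6 difference was -0.19 (adjusted p = 0.47). In Ts8 (0.32), Ts11 (-0.30) and Ts15 (0.17) the difference from WT was not called.

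Evx1, a homeobox gene of the posterior streak, was 9.31% and 10.3% for WT, 7.25% and 7.22% for Ts6, 5.86% and 4.20% for Ts8, 13.4% and 12.99% for Ts11, and 17.8% and 14% for Ts15. The groups did not overlap: Ts8 and Ts6 lay below WT, and Ts11 and Ts15 above it. Evx1 fell in Ts8 (-0.98, SE 0.18, limma adjusted p = 0.038) and read -0.44 in Ts6 (adjusted p = 0.18), where its chromosome is present in 3 copies, 0.43 in Ts11 (adjusted p = 0.19) and 0.69 in Ts15 (adjusted p = 0.062). Ts11 and Ts15 were both higher than Ts8, by 1.41 and 1.67, and higher than Ts6, by 0.87 and 1.13, all called. The Ts8 call against WT was lost in 8 of 16 alternatives, among them slide 1 alone (adjusted p = 0.058), normexp background correction (0.051) and no filter on dim probes (0.074).

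Cdx1 and Cdx2 are caudal-type homeobox genes that pattern the posterior body axis, and Cdx1 is a direct Wnt target there. Cdx1 was the member that rose: 11.7% and 11.2% for WT, 53.4% and 38.5% for Ts6, 21.4% and 23.1% for Ts8, 4.53% and 6.57% for Ts11, and 31.8% and 28.9% for Ts15. No group overlapped another, with Ts6 highest, then Ts15, Ts8, WT and Ts11, although Ts6 and Ts15 (adjusted p = 0.092) and Ts15 and Ts8 (adjusted p = 0.17) were not called against each other. Cdx1 rose 3.96-fold in Ts6 (log2 difference 1.98, SE 0.21, limma adjusted p = 0.0018) and 2.65-fold in Ts15 (adjusted p = 0.01), and fell 2.10-fold in Ts11 (adjusted p = 0.024). The rise in Ts6 held in all 16 alternatives. The rise in Ts15 was lost in 3 of 15, and the fall in Ts11 in 5 of 16, among them the removal of either WT array (adjusted p = 0.087 in both). In Ts8 the difference was 0.95 (adjusted p = 0.051). In the pair furthest apart, Ts11 minus Ts6 was -3.06 on the log2 scale (adjusted p = 0.0012).

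Cdx2, which is also a defining factor of trophectoderm, lay on the other side of WT from Cdx1 in Ts6 and Ts8. Its level was 11.9% and 10.1% for WT, 5.86% and 4.52% for Ts6, 5.55% and 3.16% for Ts8, 6.13% and 4.48% for Ts11, and 16.7% and 17.3% for Ts15. Ts6, Ts8 and Ts11 overlapped one another below WT, and Ts15 lay above it. The fall passed the test in Ts8 (-1.39, SE 0.28, limma adjusted p = 0.044), and the differences in Ts6 (-1.09, adjusted p = 0.052), Ts11 (-1.06, adjusted p = 0.059) and Ts15 (0.64, adjusted p = 0.21) did not. With the replicate number as a block, Cdx2 was called in Ts6 (adjusted p = 0.022) and Ts11 (adjusted p = 0.029) too, and the Ts8 call was lost in 7 of 16 alternatives. Ts15 exceeded the other 3 lines by 1.70 to 2.02 (adjusted p from 0.0051 to 0.0079). Of the other trophectoderm markers, Hand1 rose in Ts6 (1.11) and Ts15 (1.32), and Gata3 and Tfap2a were called in no line. Of the 17 genes tested on that list beside Cdx2, 4 rose in Ts6 and 2 in Ts15, where 4.44% and 2.58% of all genes rose. In Ts11, 1 rose and 1 fell, beside 4.03% and 4.10% of all genes. None of the 17 was called in Ts8, where 11 were lower and 1 higher at an unadjusted p under 0.05 in limma and their median was -0.52. At that threshold 3 were lower and 5 higher in Ts6, 2 lower and 4 higher in Ts11, and 0 lower and 5 higher in Ts15. The part of trophectoderm-like expression in the Cdx2 values was not tested.

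Between the trisomic lines, 24 of 60 comparisons of members were called, and most had Ts15 on the higher side. Ts15 was higher than Ts6 for 6 members, than Ts8 for 5 and than Ts11 for 4, and lower for none; 18.2%, 17.2% and 15.0% of all genes were called in either direction in these pairs. Against Ts6, Ts8 was higher for 2 and lower for 1 (13.7% of all genes called), and Ts11 higher for 3 and lower for 1 (7.27%). Ts11 was higher than Ts8 for Evx1 and lower for Cdx1 (7.81%). Neither Fzd7 nor Lef1 was called in any pair by its brighter probe. For Fzd7 this too depends on the probe. In the fit over the 43056 probes, the dimmer Fzd7 probe was higher in Ts8, Ts11 and Ts15 than in Ts6. The differences were 0.73, 0.84 and 1.14 (limma adjusted p = 0.033, 0.033 and 0.0053). The Ts15 comparisons run between slides, and the primitive endoderm and fibroblast lists given above were highest in Ts15.

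**Figure D4:**
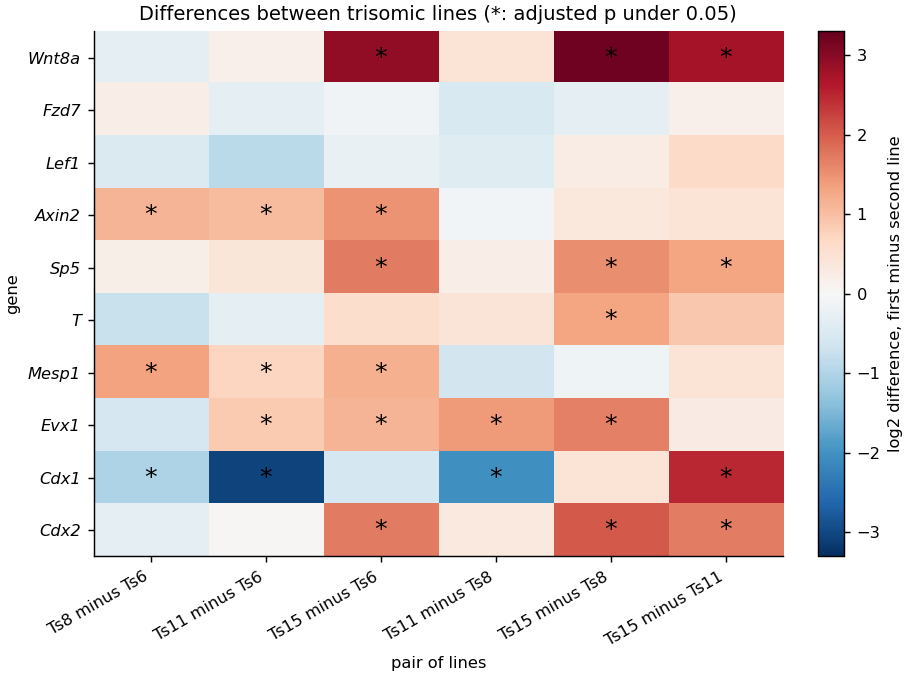
Log2 difference of each gene in each of the 6 pairs of trisomic lines, the first line named minus the second, with an asterisk where the limma adjusted p is under 0.05. The 3 columns of Ts15 hold 15 of the 24 called values, all higher in Ts15.

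The other genes of the pathway were counted in lists drawn up by role. Beside the list counts below, 4.60% of all genes fell and 4.44% rose in Ts6, and 1.43% fell and 2.06% rose in Ts8. In Ts11 the shares were 4.10% and 4.03%, and in Ts15 4.86% and 2.58%, in the same order. Some counts lie near these shares, such as 1 of 20 ligand, secretion and R-spondin genes that fell in Ts15. Of 20 ligand, secretion and R-spondin genes tested, 2 fell in Ts6, 2 in Ts11 and 1 in Ts15, while 1 rose in Ts8 and 1 in Ts15. Rspo1 and Rspo3 encode secreted enhancers of Wnt signalling. Rspo1 fell in Ts6 (-0.70, limma adjusted p = 0.018) and Ts11 (-0.94, adjusted p = 0.0082). Rspo3 was at least 1.85-fold lower in Ts6, where no array was well above background, and fell by 0.62 in Ts11. Wnt11, a ligand used mainly outside the β-catenin branch, rose in Ts15 by 1.11. Wnt10b fell there by 1.48 although its chromosome is trisomic in that line, with 1 of 2 Ts15 arrays well above background.

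Among 15 receptor genes, 1 rose and 3 fell in Ts6, 1 rose and 2 fell in Ts11, 1 fell in Ts15 and none was called in Ts8, where at an unadjusted p under 0.05 limma had 1 higher and 4 lower. Lrp6, the co-receptor gene on chromosome 6, rose in Ts6 by 0.59 (limma adjusted p = 0.024). Ror2, a receptor of Wnt5a, fell in Ts6 (-1.22, adjusted p = 0.0028) and Ts11 (-1.0, adjusted p = 0.0089) and read -0.62 in Ts8 and 0.54 in Ts15, neither called. Fzd8 fell by 0.65 in both Ts6 and Ts11, and Ror1 was at least 1.88-fold lower in Ts15, where neither array was well above background. Of 26 genes of the destruction complex and the nuclear effectors, 2 fell in Ts11 and none was called in Ts6, Ts8 or Ts15, where 3, 1 and 6 had an unadjusted p under 0.05. The genes that fell were Amer1, whose product binds Apc (-0.77, adjusted p = 0.019), and Dvl1, a Dishevelled adaptor (-0.41, adjusted p = 0.044).

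Of 19 secreted and membrane inhibitors tested, 5 fell in Ts6, 2 rose in Ts8, 1 rose and 1 fell in Ts11, and 2 rose and 2 fell in Ts15. Nkd1 and Znrf3, named after their values were seen, rose where their own chromosome is trisomic. Nkd1, on chromosome 8, rose in Ts8 by 0.96, and Znrf3, on chromosome 11, in Ts11 by 0.46 (limma adjusted p = 0.043 for each). The other inhibitors tested on those chromosomes were not called in the same line. Dkk4 read 0.13 and Sfrp1 0.21 in Ts8. Rnf43 read -0.98, Notum -0.28 and Kremen1 0.28 in Ts11. Dkk1, which blocks Lrp co-receptors and is itself a target, rose in Ts15 by 2.03 (limma adjusted p = 0.0091). Frzb, a secreted Frizzled-like antagonist, rose there by 1.56 (adjusted p = 0.0098) and was at least 1.47-fold lower in Ts11, where neither array was well above background. Sfrp1 fell in Ts15 by 1.02, and Sfrp4 fell in Ts6 by 0.61, rose in Ts8 by 0.65 and fell in Ts15 by 0.54, just inside the threshold. Of the 28 genes tested on a list of target genes, 6 are inhibitors already counted. Of the remaining 22, 5 fell in Ts6 and 3 rose in Ts15, among them Sox17, which is also a primitive endoderm gene. None of the 22 was called in Ts8 (1 higher and 6 lower at an unadjusted p under 0.05 in limma) or in Ts11 (1 higher and 2 lower). Tnfrsf19 fell in Ts6 by 1.15 (adjusted p = 0.0057), and Msx2 fell in Ts6 by 0.71 and rose in Ts15 by 0.87. The median of the 22 was -0.43 for Ts6, -0.19 for Ts8, -0.22 for Ts11 and 0.09 for Ts15.

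Of 32 further streak and early mesoderm genes tested, 1 rose and 4 fell in Ts6, none was called in Ts8 (3 higher and 8 lower at an unadjusted p under 0.05), 2 fell in Ts11 and 5 rose in Ts15. Hoxb1, an anterior Hox gene of the streak that lies on chromosome 11, fell in Ts6 (-1.04, limma adjusted p = 0.025) and Ts11 (-1.26, adjusted p = 0.016), with 1 of 2 Ts11 arrays well above background. Of the 5 that rose in Ts15, 4 are also markers of other lineages: Gata4, Gata6 and Foxa2 are on the primitive endoderm list and Hand1 is on the trophectoderm list, so they do not mark streak cells alone. Foxa2, named after its values were seen, rose there by 1.95 (adjusted p = 0.013), and the other gene was Cited1. The list's median was -0.17 for Ts6, -0.16 for Ts8, -0.08 for Ts11 and 0.14 for Ts15.

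The genes most like Axin2 and Sp5 over the 10 arrays were found among 24868 genes well above background on all of them, by the root mean square difference of log2 values centred on the WT mean. For Axin2, whose own values had a root mean square of 0.50, these were a lincRNA at mm9 chr16:91174611-91200786 (0.16), Galnt6 (0.19) and Cd200r2 (0.19). For Sp5, with 0.85 of its own, these were Grhl2 (0.24), Pim2 (0.27) and the receptor gene Ror2 (0.29). The likeness describes these arrays, 2 of each of 5 lines.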

How the data were processed

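Intensity values of 10 single-colour arrays had been made by the authors with Agilent Feature Extraction 10.7.3.1, per the file headers; no normalization between arrays is recorded. Per the labels' protocols, total RNA was amplified and labelled with Cy3. In 1 file gene names had been altered, so names came from the other arrays. Processed signals were taken to log2, replicate spots averaged and the 75th percentile of each array subtracted. Of 55681 probes, 176 had outlier flags and were left out; kept were the 43056 others that some group had well above background on its 2 arrays. Names were updated by RefSeq accession (26762 of 28390 found). The brightest probe stood for a gene (28193 genes). The tests were fitted by limma 3.58.1 (R 4.3.3), with 1 mean per group over all 10 arrays, 5 residual degrees of freedom and Benjamini-Hochberg adjustment over all genes in each comparison; an adjusted p under 0.05 is a call, two-sided. The fit was tested on simulated data. The members, gene lists and motifs were chosen with earlier results of these data known, so counts of members are descriptions. All members are named; of each other list, up to 4 genes called in most lines, ties by smallest adjusted p. The deposited series table holds log2 values that increase with the scanner's; its columns share 1 SD (3.81), have medians from -3.42 to -3.32 and an unstated centring, so it served as an alternative. Replicates of a group correlated at 0.992 to 0.996 over genes, and no pair held identical values. Settings tried were quantile, median and normexp scaling, that table, other filters and probe rules, slide 1 alone, passage, the replicate block, trend with robust moderation, only the groups compared, and leaving out each array.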

Additional observations from a re-analysis of the deposited data

Results flagged for a closer look

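Each value here is a difference between a pair of trisomic lines in the same gene that passed limma's test of that difference, so the gene's difference from WT was not the same in both lines. The values are log2 differences, the first line minus the second.

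Ts15 stood above the other lines in Wnt8a, by 2.92 over Ts6, 3.20 over Ts8 and 2.74 over Ts11. It did so in Cdx2, by 1.72 over Ts6, 2.02 over Ts8 and 1.70 over Ts11, and in Sp5, by 1.71, 1.53 and 1.31 over the same lines. T was higher in Ts15 than in Ts8 by 1.30.

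Ts6 stood below the other lines in Axin2, with Ts8 higher by 1.13, Ts11 by 1.04 and Ts15 by 1.48, and in Mesp1, with Ts8 higher by 1.33, Ts11 by 0.72 and Ts15 by 1.18; the Mesp1 values depend on a Ts6 signal not well above background and are no measure of size. Evx1 was higher in Ts11 than in Ts6 by 0.87 and than in Ts8 by 1.41, and higher in Ts15 than in Ts6 by 1.13 and than in Ts8 by 1.67.

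Cdx1 ran in another order. Ts8 differed from Ts6 by -1.03, Ts11 from Ts6 by -3.06 and from Ts8 by -2.03, and Ts15 from Ts11 by 2.48.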

How the results depend on the processing

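The 24 calls between lines became 20 to 28 under all settings. Against WT the 5 Ts6 calls became 3 once passage was a covariate and ranged over 3 to 5 when 1 array was left out. The 5 Ts8 calls became 1 with no filter on dim probes, 1 on slide 1 alone, 0 with passage, 0 with only the groups compared and 0 to 4 with 1 array left out. The 3 Ts11 calls became 6 with normexp, 5 with probes above background on every array, 0 with passage, 6 with trend and robust moderation, 1 with only the groups compared and 1 to 3 with 1 array left out. The Ts15 call became 2 with quantile normalization, 3 with median centring, 3 with normexp, 3 with the deposited table, 0 with passage and 0 to 2 with 1 array left out. The 2 calls over the mean of the lines became 1 with quantile normalization, 0 with no filter, 0 with passage and 0 to 3 with 1 array left out. With the replicate block the Ts11 count was 5 and that over the mean of the lines 1; same-numbered arrays deviated together in 2 of 10 pairs (correlations over 0.1; range -0.10 to 0.39), which did not meet the rule for pairing, although replicate 2 was the higher passage and in the second slide row in every group. Directions turned for Axin2 in Ts11 (-0.011 to 0.24 with 1 array left out), Fzd7 in Ts8 (-0.28 to 0.00031) and Mesp1 in Ts11 (0.10 with normexp). Over all genes, the Ts8 calls went from 3.49% to 0.52% with no filter and 0.87% on slide 1 alone. Those of Ts11 went from 8.13% to 8.54% with normexp, 10.4% with probes above background on every array and 10.6% with trend and robust moderation. Those of Ts15 went from 7.43% to 5.96% with quantile normalization, 7.64% with median centring, 5.43% with normexp and 5.99% with the deposited table. The cause of these changes was not tested. Fewer arrays or residual degrees of freedom come with the omissions.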

Other observations

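For 6 of the 10 members (Wnt8a, Axin2, T, Evx1, Cdx2 and Mesp1) the gap between the arrays of a group was widest in Ts8, as for 24.5% of all genes. The Ts8 array of passage 13 was below that of passage 10 for T by 0.93, for Wnt8a by 0.84, for Cdx2 by 0.81 and for Evx1 by 0.48 on the log2 scale, and above it for Mesp1 by 0.53 and for Axin2 by 0.28. Of the other members, Sp5 and Fzd7 had their widest gap in WT, by 0.68 and 0.28, and Lef1 and Cdx1 in Ts11, by 1.25 and 0.54.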
